A study of Caenorhabditis elegans with 2 samples.

Results

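Narrow clusters of small RNA reads in the sense direction of X-linked messenger RNA exons were described in whole Caenorhabditis elegans. A cluster is a stretch of overlapping reads on 1 strand, and narrow means 18 to 26 nt wide. Members lay on chromosome X, overlapped an annotated exon on their own strand, and carried no non-coding RNA or transposon annotation on that strand. By this rule 2278 clusters with 2609 reads were members, out of 51569 clusters in the deposited list and 3298 narrow clusters on X. The same rule gave 27426 clusters with 31596 reads on the 5 autosomes, chromosomes I to V. Rule membership used position, width and annotation, and no read count.

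All worms carried the strain label fem-1. This gene belongs to the sex-determination pathway, and XX worms that lack it form oocytes but no sperm. The labels name no allele, age or growth temperature. The series describes 2 libraries from whole worms, 1 per group. The values are those of the monophosphate library, made to sequence small RNAs with a 5′ monophosphate, and the polyphosphatase library was not analysed here. With 1 library there was no replicate and no test. Intervals are exact 95% intervals that cover counting error only, since PCR copies cannot be told from separate molecules. Positions are those of the deposited list, and its genome build is not stated.

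In the soma of XX worms the dosage compensation complex lowers transcription from both X chromosomes. In the germ line the X is kept largely silent by chromatin regulators and is opened mainly in late oogenesis. Genes for muscle, nerve, gut and yolk are frequent on X, while genes needed in the early germ line are mostly autosomal. Short reads in the sense direction of exons can be pieces of mRNA that is being degraded, whereas 22G siRNAs of the worm lie antisense to their targets. Sequences of the clusters are not in the tables used here, so no letters are shown.

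X held fewer of these clusters than any autosome. There were 129 clusters per Mb on X (95% interval 124 to 134), against 332 per Mb on the autosomes together (329 to 336). Chromosome III had 439, I had 422, II had 338, IV had 297 and V had 224 per Mb. No autosome's interval overlapped that of X. The X to autosome ratio was 0.388 (0.371 to 0.404) by clusters and 0.385 (0.370 to 0.401) by reads, and ran from 0.294 against III to 0.575 against V. X made up 17.7% of chromosome length and 7.67% of the clusters. Fewer cells that use a gene and less RNA per cell cannot be told apart in whole worms.

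**Figure D1:**
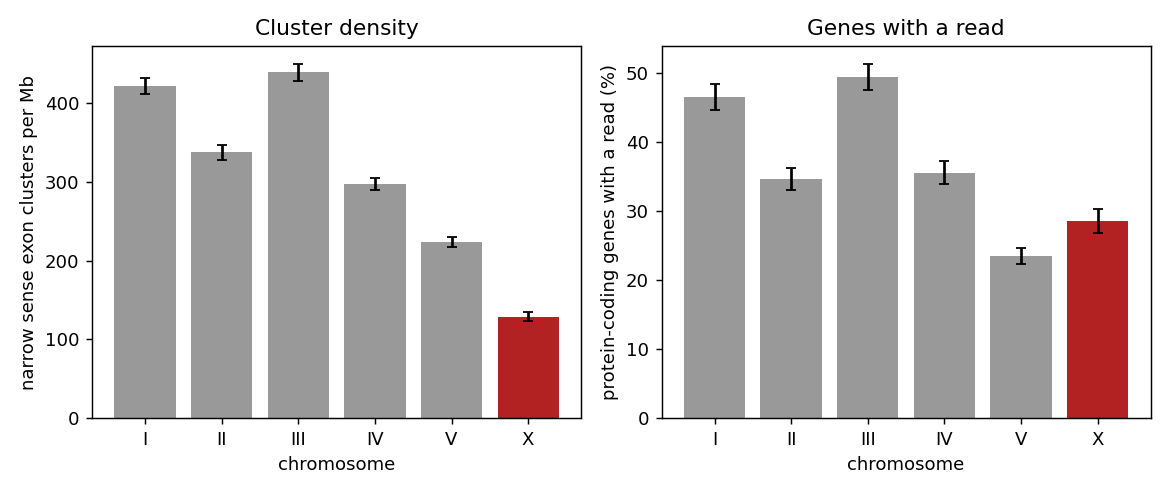
Left, narrow sense exon clusters per Mb on each chromosome; right, the percent of protein-coding genes with a read in such a cluster. Bars are the values of 1 library and error bars are exact 95% counting intervals; X is lowest on the left with 129 per Mb and second lowest on the right with 28.5%.

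Gene density differed too, with 154 protein-coding genes per Mb on X and 209 on the autosomes. Per protein-coding gene there were 0.834 clusters on X and 1.59 on the autosomes, a ratio of 0.525 (0.502 to 0.547). Chromosome V was closest, with 0.937 clusters per gene, and III was farthest with 2.29. Transcript lengths were not available, so neither value is per length.

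Of 2730 protein-coding genes on X, 779 (28.5%, interval 26.8 to 30.3) had at least 1 read. On the autosomes 6170 of 17241 did (35.8%, 35.1 to 36.5). Chromosome V lay below X with 23.5% (22.3 to 24.7), and II (34.6%), IV (35.5%), I (46.5%) and III (49.4%) lay above. X was thus lowest by clusters per gene but not by the share of genes with a read. X genes with reads had few: a mean of 2.85 clusters per gene named on X against 4.36 on the autosomes, and 47.4% of the 799 X genes had a single cluster against 31.2%. At least 10 reads were found for 50 X genes (6.26%) and 876 autosomal genes (13.8%). A gene without a narrow read can still have reads in wider clusters, as 12 X genes did, or lie below detection at this depth.

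Other narrow classes were also sparser on X, but to unequal degrees. The X to autosome ratio of clusters per Mb was 0.319 (0.286 to 0.355) for clusters antisense to exons, 0.474 (0.369 to 0.601) for introns in sense and 0.715 (0.626 to 0.815) for intergenic sequence. By reads the order was another one, with 0.364 (0.333 to 0.397) for antisense exon, 0.244 (0.198 to 0.297) for intron and 0.285 (0.260 to 0.312) for intergenic clusters, against 0.385 (0.370 to 0.401) for sense exons. The sense exon ratio thus lay below the intergenic one by clusters and above it by reads. On X there were 364 antisense exon clusters with 551 reads. Of the X genes with member reads, 110 (13.8%) also had antisense exon reads, against 2279 autosomal genes (36.0%).

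Along the chromosome, clusters on X were less concentrated in the central segments than on the autosomes. With each chromosome cut into 10 segments of equal length, X ran from 74.7 clusters per Mb in segment 1 (62.5 to 88.5) to 180 in segment 5 (161 to 201). Segments 2 and 3, with 157 and 169, lay above segments 4, 6 and 7, with 140, 129 and 123. Segments 8, 9 and 10 had 99.0, 116 and 100. Segments 4 to 7 held 143 per Mb on average, 1.20 times the mean of the outer segments. The same ratio was 1.76 on I, 1.79 on II, 1.96 on III, 1.87 on IV and 1.90 on V. The autosomes thus carried most clusters in their central segments, where worm autosomes hold their broadly expressed genes, and X did so less. In 10 groups of neighbouring genes the percent of X genes with a read ranged from 22.7 to 33.7, against 14.8 to 44.9 on II, 37.0 to 58.0 on III and 24.7 to 46.0 on IV, and reached 52.8 on I and 34.9 on V. The highest segment exceeded the lowest 2.42 times on X by clusters per Mb, close to 2.50 times on I, and up to 5.80 times on II.

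**Figure D2:**
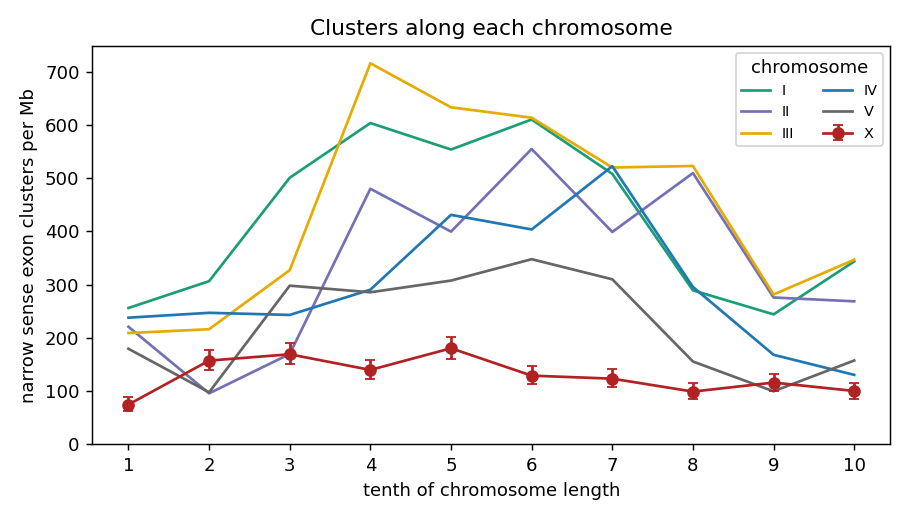
Narrow sense exon clusters per Mb in 10 segments of equal length along each chromosome. Error bars on X are exact 95% counting intervals; X stays between 74.7 and 180 per Mb while chromosome III rises to 716 in its central segments.

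Single reads made up most of the class. Of the X clusters, 2046 (89.8%) held 1 read, against 89.1% on the autosomes, and 232 held 2 reads or more. One distinct sequence was recorded for 93.1% of X clusters and 92.2% of autosomal ones. The median was 1 read per cluster on both. Within the narrow class X thus had fewer clusters, with reads per cluster alike. Reads that lie densely merge into wider clusters and leave the class, so the class cannot decide reads per cluster in general. Wider sense exon clusters on X numbered 388 with 6596 reads, and those on the autosomes 4482 with 26812. Without the yolk protein (vit) genes they numbered 273 with 1022 reads on X and 4458 with 22344 on the autosomes.

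Widths had no peak. The share of X clusters fell from 13.7% at 18 nt (12.3 to 15.1) through 11.6% at 21 nt and 11.2% at 22 nt to 8.34% at 26 nt (7.24 to 9.55). On the autosomes the shares were 13.4%, 11.7%, 11.2% and 9.42%. At 26 nt the intervals overlapped as well (9.08 to 9.77 on the autosomes). Clusters of 21 to 23 nt, the sizes of piRNAs and miRNAs, made up 33.3% of X clusters (31.4 to 35.3) and 33.2% of autosomal ones. At the edge of the rule, X had 190 sense exon clusters with 239 reads at 26 nt and 20 with 50 reads at 27 nt. No cluster was narrower than 18 nt. The name of the list gives lengths of 18 and 26 nt, which may be limits on read length. With such limits a single read cannot make a cluster outside these widths. The edges, and the lack of a peak beyond them, then cannot be read as properties of the RNA.

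X differed in edits, the mismatches between reads and genome that the list records. An edit was present in 4.57% of X clusters (3.75 to 5.50) and in 2.68% of autosomal ones (2.49 to 2.87). Each autosome lay between 2.50% on I and 2.95% on V. The distance was widest in the shortest clusters. At 18 and 19 nt 9.98% of X clusters had an edit (7.71 to 12.7) against 4.45% (3.98 to 4.95), and at 20 to 26 nt 2.62% (1.91 to 3.51) against 2.05% (1.86 to 2.26). X was also higher at 26 nt, with 5.79% (2.93 to 10.1) against 2.13% (1.61 to 2.76). Per Mb, however, edited clusters were fewer on X (5.88) than on the autosomes (8.90). At 18 and 19 nt they numbered 3.39 per Mb on X and 3.86 on the autosomes, and at 20 to 26 nt 2.49 and 5.04. Per Mb, the higher percent on X at 18 and 19 nt thus came with fewer clusters in all, not with more edited ones. Per protein-coding gene the order of edited clusters turned, with 60 for 2730 genes on X and 318 for 17241 on the autosomes. On a sequence named markov, which is no chromosome and which no source explains, 92.2% of 1908 clusters had an edit, 76.8% were 18 or 19 nt wide and edited clusters numbered 17.6 per Mb. The markov value counts all its clusters on both strands, while those of X and the autosomes count sense exon clusters only. These densities are thus not like measures. The part of placements like those on markov in the X value was not tested. Without edited clusters the X to autosome ratio by clusters was 0.380 (0.364 to 0.397), within the interval of the value with them.

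**Figure D3:**
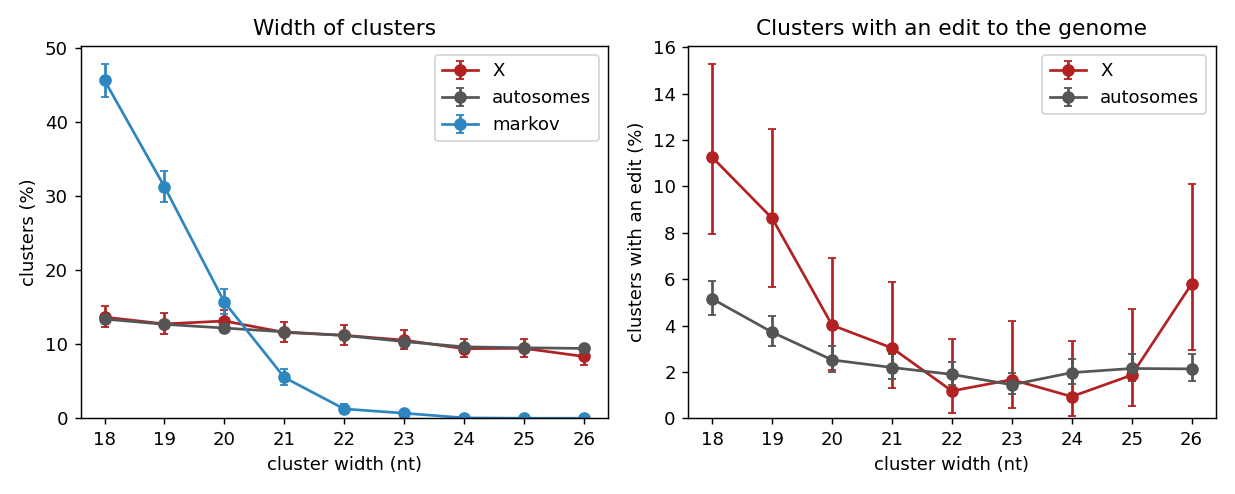
Left, percent of clusters at each width for X, the autosomes and the sequence named markov; right, percent of clusters at each width with an edit, for X and the autosomes. Error bars are exact 95% counting intervals; the X and autosome widths overlie each other, and X has more edited clusters at 18 nt (11.3% against 5.15%) and 19 nt (8.62% against 3.71%).

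Within transcripts, X reads lay mainly in coding sequence. The coding sequence was touched by 93.2% of X clusters (92.1 to 94.2) and 94.2% of autosomal ones. The 3′ UTR was touched by 8.82% on X (7.69 to 10.1) and 6.98% on the autosomes (6.68 to 7.29), and the 5′ UTR by 1.98% (1.44 to 2.63) and 3.14% (2.93 to 3.35). X thus had the larger 3′ UTR share and the smaller 5′ UTR share, without overlap of intervals against the autosomes together. Against single autosomes the 3′ UTR interval of X overlapped those of II, III and IV, and the 5′ UTR interval those of I, II and IV. Splice sites were spanned or touched by 2.28% of X clusters (1.71 to 2.98) and 1.78% of autosomal ones (1.62 to 1.94). The plus strand held 47.5% of X clusters (45.4 to 49.6).

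Dicer cuts double-stranded RNA and leaves 2 nt overhangs at the 3′ ends of its products. Only 16 X clusters (0.702%, 0.402 to 1.14) were overlapped by a narrow cluster on the opposite strand, against 588 autosomal ones (2.14%, 1.98 to 2.32). Possible partners were sparser on X too, with 20.6 narrow antisense exon clusters per Mb against 64.6. The part of this in the lower share was not tested. Of these 16, none was offset by 2 nt at both 3′ ends, which allows a share of up to 20.6%, and 1 of the 588 was. The other X clusters had no narrow partner and could not show such an offset. The 16 lay in 15 genes and held 17 reads. They included 2 clusters in his-24, a histone H1 gene (X 14490463 to 14490484 and X 14490486 to 14490506), and single clusters in F52D2.6, dgn-1, the dystroglycan gene, and F59C12.4 with 2 reads.

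By gene, the 20 X genes with the most reads held 19.2% of member reads. Of the leading X genes, all but akt-2 had reads in 4 or more exons. let-2 encodes a type IV collagen chain of basement membranes. It had 51 reads (38.0 to 67.1) in 41 clusters over 7.60 kb, from X 16380635 to 16388236 on the minus strand, and no cluster held more than 2 reads. The clusters touched 12 exons of the best covered transcript, with a median of 94 nt between neighbouring starts. A further 60 let-2 reads lay in 18 wider clusters, and no antisense exon read was found.

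C39D10.7 had 48 reads in 34 clusters over 12 exons (X 7908220 to 7913746), and spc-1, the alpha spectrin of the membrane skeleton, had 41 reads in 32 clusters (X 3117567 to 3126978). hsp-3, a BiP-type chaperone of the endoplasmic reticulum, had 30 reads in 19 clusters, the leading of which held 4 reads at X 6089851 to 6089874. F40F4.6, named irg-7 in the WBcel235 gene table, had 26 reads in 23 clusters. mrp-4, an ABC transporter gene, had 24 reads, and nmy-1, a non-muscle myosin heavy chain, and pdi-2, a protein disulfide isomerase used in collagen assembly, had 22 each. Within the narrow class these genes had spread reads and no dominant position, with at most 4 reads in any of their narrow clusters. Dense reads merge into wider clusters, so positions with more reads can lie outside the class. Wider clusters held 56 reads of C39D10.7, 37 of pdi-2, 28 of spc-1 and 24 of hsp-3. They held 13 of mrp-4, 2 of nmy-1 and 0 of F40F4.6.

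The remaining leading genes were F39C12.1 with 21 reads in 21 clusters, vit-1 with 20, lfi-1 with 18, spat-3 and dlg-1 with 17 each, apl-1, dpy-22, flna-1 and rbc-1 with 16 each, and T25C12.3 and him-4 with 15 each. dlg-1 is the Discs large gene of epithelial junctions, apl-1 the amyloid precursor homologue, dpy-22 a Mediator subunit, flna-1 a filamin gene and him-4 the hemicentin gene of the extracellular matrix. him-4 clusters reached from X 9721050 to 9752896, a span of 31.8 kb, with at most 2 reads in a cluster. Counts are totals per gene and rise with transcript length, so their order is not an order of expression.

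akt-2, an AKT kinase gene of insulin signalling, stood apart. It had 49 reads in 2 clusters, and 48 of them (35.4 to 63.6) lay in a single 20 nt cluster in exon 4 at X 14149178 to 14149197. This cluster had 5 distinct sequences and 48 edits, as many as reads. Without it akt-2 had 1 read. The next highest clusters were R07B1.8 with 7 reads and 7 edits (X 9872315 to 9872334, exon 2), ZK813.1 with 5 reads and no edit (X 3446338 to 3446362, exon 1) and mek-1, a MAP kinase kinase gene, with 5 reads of 1 sequence and 5 edits (X 7479526 to 7479543, exon 2). Of the 4 X clusters with 5 reads or more, 3 had as many edits as reads. Clusters of 4 reads and no edit lay in asb-2, an ATP synthase subunit gene (X 4470687 to 4470712), cpr-6 (X 6607592 to 6607614), unc-18, which acts in synaptic vesicle release (X 7683585 to 7683609), C39D10.7 (X 7909182 to 7909207), hsp-3 and vit-1 (X 7731438 to 7731461). On the autosomes the leading genes were T05E12.8 with 107 reads in 2 clusters, vab-10 with 99 in 83, eel-1 with 96 in 81, F26H9.8 with 75 in 1 cluster that had 75 edits, and sma-1 with 69 in 60.

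The narrow class left out most reads of the most covered X genes. Sense exon reads of X outside it, in 388 clusters wider than 26 nt, numbered 6596, or 71.7% of all X sense exon reads, against 45.9% on the autosomes. The vitellogenin genes, which encode yolk proteins made in the adult intestine and taken up by oocytes, held 5574 of these 6596 reads (84.5%). vit-2 had 2451 wide reads and no narrow read, and vit-3 353 and none. vit-5 had 1719 wide and 2 narrow reads, vit-4 had 392 and 2, and vit-1 had 659 and 20. Reads that lie densely merge into wider clusters, so few or no narrow clusters on a vit gene do not show few reads. These genes are near-identical in part, with uniqueness values as low as 1, so reads can be exchanged between them.

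**Figure D4:**
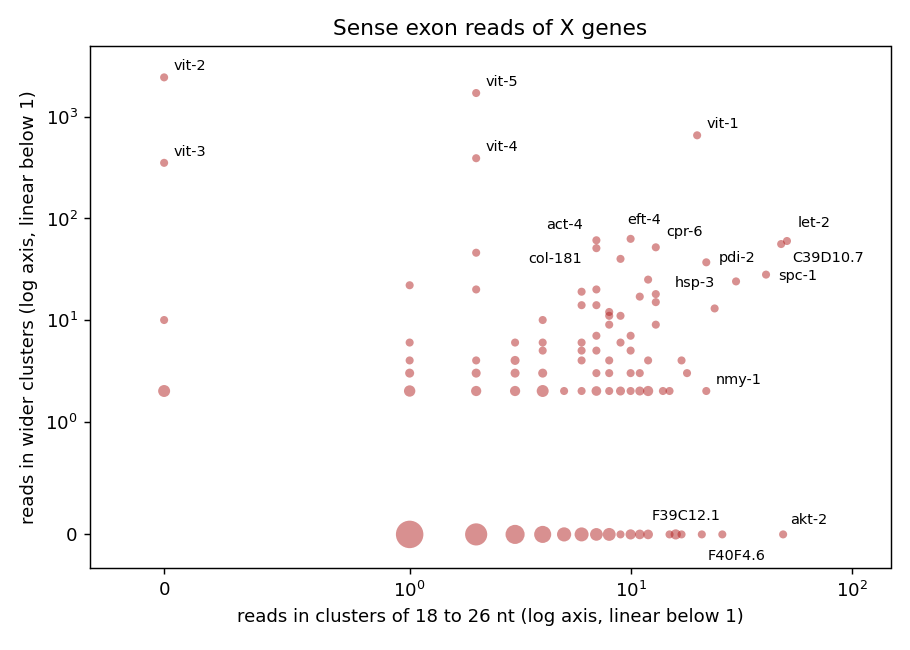
Each point is a position shared by 1 or more X genes, larger where more genes share it; the x axis gives reads in clusters of 18 to 26 nt and the y axis reads in wider sense exon clusters, both on log axes that are linear below 1. The vit genes lie along the top with up to 2451 wide reads and at most 20 narrow ones, and akt-2 at the bottom right with 49 narrow and 0 wide reads.

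With all widths the X to autosome ratio of reads per Mb rose to 0.735 (0.719 to 0.752), and without the vit genes it was 0.312 (0.302 to 0.323). Wide clusters alone had a ratio of 1.15 (1.12 to 1.18) by reads, and 0.213 (0.200 to 0.227) without vit genes. By clusters the ratio of all widths was 0.390, close to that of the narrow class. The 5 yolk genes on X decided the level of X by reads in the wide clusters, and had 24 of the 2609 reads in the narrow ones.

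More wide than narrow reads were found for 58 X genes. Among them, besides vit genes, were eft-4, a translation elongation factor 1 alpha gene (63 wide, 10 narrow), act-4, an actin gene (61 and 7), the collagens col-181 (51 and 7) and col-184 (46 and 2), cpr-6 (52 and 13), asp-3 (40 and 9), pdi-2 (37 and 22), let-2 (60 and 51) and C39D10.7 (56 and 48). Of the 799 X genes with narrow reads, 105 (13.1%) also had wide ones, and 27.8% of the autosomal genes did.

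Gene lists were compared with all genes of their chromosome, of which 28.5% had a read on X and 35.8% on the autosomes. A yolk gene list had reads in 3 of 5 X members, the vit genes above. Muscle genes had reads in 8 of 12 X members and 19 of 21 autosomal ones. The leading X members were tnt-2, a troponin T, with 13 narrow reads, mup-2, also a troponin T, with 10, unc-27, a troponin I, with 8 and act-4 with 7. The pharyngeal myosin myo-2 had 4, and mlc-2, a myosin light chain gene, had 10 wide reads and no narrow read. unc-96, unc-97 and unc-98, attachment genes of the sarcomere, had no narrow read.

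Basement membrane and matrix genes had reads in 6 of 9 X members, namely let-2 (51), him-4 (15), lam-2, a laminin chain (12), dgn-1 (6), the netrin gene unc-6 (2) and the syndecan gene sdn-1 (1). Intestinal genes had reads in all 5 X members of the list and 13 of 15 autosomal ones. The proteases cpr-6 (13 reads), asp-4 (12) and asp-3 (9) led, and the gut transcription factor gene elt-2 and the peptide transporter gene opt-2 had 1 each. Chaperone, elongation factor and other housekeeping genes had reads in all 7 X members and all 16 autosomal ones, with hsp-3 (30), eft-4 (10) and his-24 (10) at 10 or more. Of the 7, gpd-2 counted only through 1 read in a cluster that also names mai-1. eft-4 has a near-identical autosomal copy, so its reads can be shared with that copy.

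Germline lists had few X members. The lists were chosen and X holds 13.7% of protein-coding genes, so these numbers of members are not a result. The oocyte and embryo list had 1 gene on X, mes-1, without a read, and 25 autosomal genes, all with reads. The P granule and germline list had 4 X genes, of which meg-1 had 7 reads, gei-12 (meg-3 in the gene table) 4, C36C9.1 (meg-4) 1 and meg-2 none. All 14 autosomal members had reads, with a median of 10 per gene against 2.5 on X. Major sperm protein genes, none of which lay on X, had no read in 31 autosomal members.

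Genes of X dosage and sex all had reads on X. sdc-2, which brings the dosage compensation complex to X, had 6 reads in 6 clusters and sdc-1 had 2, against a median of 10.5 in 8 autosomal genes of that list. The X signal elements sex-1 (3 reads), fox-1 (2) and ceh-39 (2), which count X chromosomes in the embryo, and their target xol-1 (1 read) had a median of 2 reads, as did the 10 autosomal genes of the sex-determination list. The median over the 799 X genes with a read was also 2, while over all protein-coding genes of X it was 0. The list medians include members without a read. With 1 to 3 reads a gene, no order among them can be read.

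Nerve genes were mixed. Of 10 X genes of the neuronal list 6 had reads, led by unc-18 (6) and the active zone gene unc-10 (4), while the touch channel genes mec-4 and mec-10 and the innexins unc-7 and unc-9 had none. Neuropeptide genes had reads in 2 of 35 X members (5.71%, 0.700 to 19.2), flp-12 and flp-18 with 1 each, and in 10 of 74 autosomal ones. Potassium channels of the twk family had none in 10 X members and reads in 2 of 34 autosomal ones. Acetylcholine receptor and ligand-gated channel genes had reads in 2 of 24 on X, lgc-32 (2) and lgc-4 (1), and in 8 of 53 elsewhere. These families lay below the share of all X genes, although the interval of the twk family (0 to 30.8%) contains it.

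Nuclear hormone receptor genes went the other way. On X 11 of 23 had reads (47.8%, 26.8 to 69.4) and on the autosomes 44 of 246 (17.9%, 13.3 to 23.3), without overlap of intervals. The X interval contains the share of all X genes. The X members with most reads were nhr-17, nhr-28 and nhr-71 with 4 each, and the 11 together had 23 reads. Homeobox genes of the ceh family had reads in 6 of 18 X members and 18 of 46 autosomal ones. Cuticle collagens had reads in 6 of 27 X members (22.2%, 8.62 to 42.3), led by col-19 with 9 and col-181 with 7, and in 38 of 129 autosomal ones. The ribosomal protein genes on X, rpl-11.2 (2 narrow and 20 wide reads) and rpl-25.1 (4 and 5), both had reads.

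**Figure D5:**
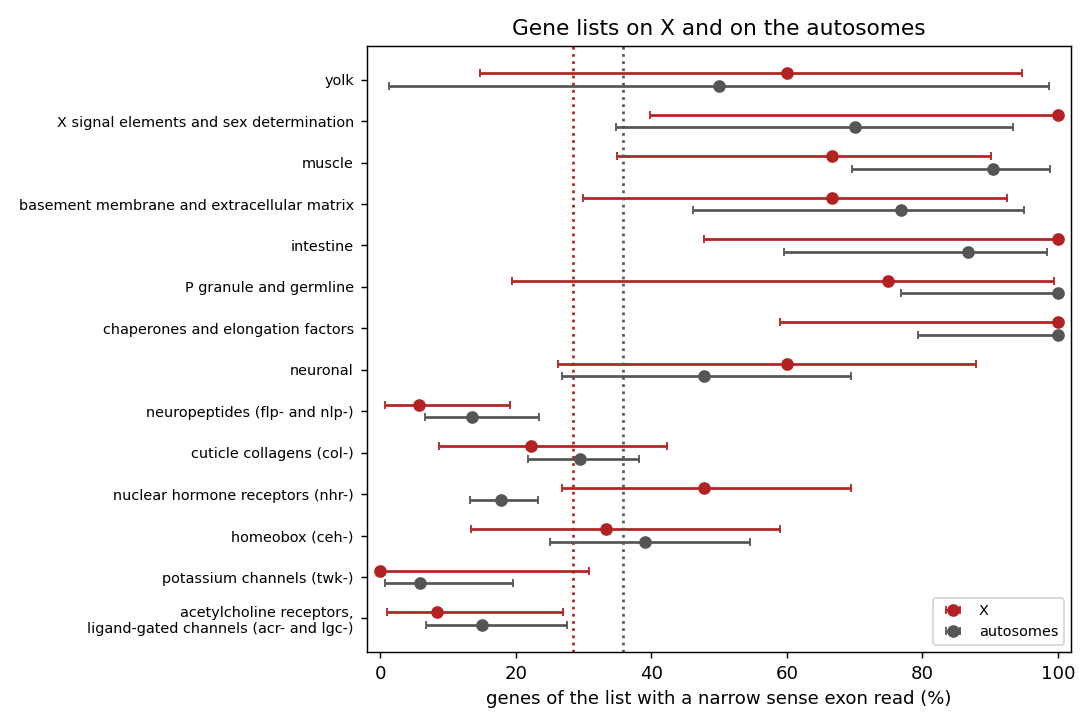
Percent of the genes of each list with at least 1 narrow sense exon read, for members on X and on the autosomes, with exact 95% intervals; lists with under 4 members on X are not drawn. Dotted lines mark all protein-coding genes, 28.5% on X and 35.8% on the autosomes; nuclear hormone receptors show 47.8% on X against 17.9%, and neuropeptides 5.71% on X.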

How the data were processed

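The deposited cluster list carries no sample accession. Its name begins like the title of the monophosphate library and like no other title, so it was read as that library; each line states support by 1 library. The submitters' processing notes name Bowtie2 2.1.0. No source names the genome build, the annotation or trimming. The name of the list gives lengths of 18 and 26 nt, which may be limits on read length. No other read filter is named. The authors deposited raw read counts per cluster without normalization, and a count of conversion events. The deposited entropy score was not used. Other deposited attributes give width, edits, distinct sequences, uniqueness and annotation.

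Values were computed with Python 3.11.15, pandas 2.3.3, NumPy 2.4.6 and SciPy 1.17.1. Chromosome lengths were taken as the last position of any cluster. A cluster that names several genes counted once for each, which applied to 3 X clusters; a symbol and an isoform name of the same gene counted as 1 gene. Of 804 gene names on X, 791 (98.4%) matched the WBcel235 gene table, used for names, chromosomes, gene types and order only. Intervals are exact Poisson or Clopper-Pearson, ratios exact conditional. The class rule and intervals were tested on simulated data. Members and lists were chosen with earlier results of these data known. Named are the 20 X genes with the most reads, the 10 with the most clusters, the 10 leading X clusters, list members on X with 10 reads or more (or the highest) and 5 autosomal genes; others were named after their values were seen, to fill out a list. Planned scaling by reference chromosome length or by coding length was not made, because builds differ and no protein table was given.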

Additional observations from a re-analysis of the deposited data

Results flagged for a closer look

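Signals outside the narrow class were found in the same list. On X, vit genes held 5574 reads in sense exon clusters wider than 26 nt. The sequence named markov held 1908 clusters. Conversion events, a deposited count whose definition is not stated, numbered 12 in the narrow sense exon clusters of X, in 12 clusters (0.527%, 0.272 to 0.918) against 0.201% of the autosomal ones (0.151 to 0.261).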

How the results depend on the processing

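Of 72 X to autosome ratios recomputed under other settings, 71 stayed below 1 and 45 stayed within the counting interval of the reported value. The exception was the share of protein-coding genes with a read against chromosome V alone, at 1.22. Counted among the 72 are the ratios with annotation on the own strand only, which repeat the reported values by construction. Settings that were not planned are counted too. These were annotation on either strand, all widths without vit genes, widths of 20 to 26 nt, and the class without the edited akt-2 cluster. Against I, III, IV and V the ratio of clusters per Mb was 0.305, 0.294, 0.434 and 0.575, and of reads per Mb 0.301, 0.296, 0.425 and 0.563. Clusters per gene gave 0.378 against I, 0.558 against II, 0.365 against III and 0.891 against V, and the share of genes with a read 0.614 against I and 0.578 against III. Clusters of 2 reads or more left 232 clusters and 563 reads on X, a median of 2 reads on X and 2 on the autosomes, 22 list members with a read instead of 72, and ratios of 0.363 by clusters, 0.367 by reads, 0.491 per gene and 0.513 for genes with a read. Uniqueness at or above the median of 42 left 1270 clusters and 1396 reads, a gene share ratio of 0.714 and 54.9% of clusters at 21 to 23 nt. In some clusters uniqueness went with width: it was 40 for a 20 nt cluster of gpd-2, 42 for a 21 nt cluster of mlc-1 and 48 for a 24 nt cluster of sdc-1. Others did not follow, with 40 and 16 for 26 nt clusters of C39D10.7 and tag-320. The relation over the whole class was not computed. This cutoff may also select on width, so the 54.9% cannot be read as a preference for these sizes. Without the 10 leading genes on each side the ratios were 0.354 by clusters, 0.344 by reads and 0.479 per gene. All widths gave 9205 reads on X and a reads ratio of 0.735. All widths without vit genes, chosen after seeing the data, gave 0.371 by clusters, 0.312 by reads and 0.502 per gene. The causes of these changes were not tested. The leading 20 genes by reads and by clusters shared 19, all but akt-2. Annotation was read on the own strand already, so that alternative changed nothing. Scaling by reference length and by coding length was not run. No paired analysis was possible because 1 library was analysed. Depth limits single genes most: 360 of 799 X genes had 1 read.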

Other observations

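Some X loci of the class are not protein-coding genes in the WBcel235 gene table, although the deposited annotation gives them exons. Of the 799 X genes, 6 are pseudogenes there and 13 names were not matched. F31A9.4, a pseudogene there, had 3 reads, and W05H9.3, a non-coding RNA there, had 8. F01G12.6, which was not matched, had 8 reads, and T07H6.4, also not matched, had 3 reads with 3 edits in a single cluster at X 6285139 to 6285157.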
